A study of Mus musculus with 4 samples.

Results

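The genes described here encode the enzymes of heme synthesis and a transporter that serves them: Alas1, Alas2, Alad, Uros, Urod, Cpox, Ppox, Fech and Tmem14c. They were chosen by name from pathway knowledge, but with earlier results of these data known. Comparisons of these genes, and of the other gene lists below, with all genes are therefore descriptive only. All 9 were found among the 17508 gene names measured. Single marrow cells of C57BL/6 mice were sorted into plates, and transcripts were counted by SORT-seq, in which the RNA of every well gets a barcode and every captured molecule a random tag (UMI) that is counted once. All cells were sorted as CD51-negative "TNCs", an abbreviation that the labels do not spell out, and as CD44+ or CD44-, so the groups share strain, tissue and lack of CD51 and differ in the surface hyaluronan receptor CD44. Of the 4 plates, 1 held CD44+ cells, 1 held CD44- cells, and each of the other two held CD44+ cells in rows A to H and CD44- cells in rows I to P. The sources used here give no age, sex or assignment of animals to plates. Cells were freed from marrow by collagenase IV (at 2 mg/mL) with dispase (at 1 mg/mL).

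Heme is built from glycine and succinyl-CoA in a pathway that starts in the mitochondrion, passes through the cytosol and returns to the mitochondrion. The first and rate-limiting step is made by 5-aminolevulinate synthase, with Alas1 as the form found in most cells and Alas2 as the form of red cell precursors. In marrow, developing red cells make most of the heme, since each globin chain binds a heme group.

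Wells with at least 1000 transcripts were taken as cells, which left 343 of 1536 wells. They form 3 libraries per sort, each being the summed wells of 1 sort on 1 plate: replicate 1 is a whole plate, and replicates 2 and 3 are row blocks of the plates that held both sorts. The CD44+ libraries held 56, 95 and 87 wells and 149707 to 1707318 transcripts, the CD44- libraries 44, 24 and 37 wells and 97041 to 158763 transcripts. CD44- libraries were thus thinly covered, and a gene at 50 CPM (transcripts per 1000000 of a library or class) rests on only a few transcripts there. Since nothing ties plates to separate animals, p-values measure only how far these 6 libraries spread, which may be technical. Transcripts of Cd44 itself overlapped between the sorts, from 93.5 to 284 CPM in CD44+ and from 113 to 345 CPM in CD44- libraries. Itgav, which encodes CD51, gave 1 to 19 transcripts in each of the 6 libraries. Wells of low quality, rich in Kcnq1ot1 or mitochondrial transcripts, made up 29.7% of the 343 and were not removed. A summed library cannot tell fewer cells of a type from less RNA per cell.

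Promoters of these genes are shown first because several of the genes moved together below. RefSeq (GRCm38.p6) entries were at hand for 8 of the 9 genes, with 11 start sites. The 250 bases before each start were searched on both strands for GATA motifs (AGATAA or TGATAA or AGATAG or TGATAG) and for CCACCC. The GATA motifs are letters bound in red cell precursors by GATA factors. Klf1-like factors may bind other spellings, which were not searched. Counts of CCACCC therefore describe these letters only and not the sites of Klf1-like factors. GATA letters were found before 3 of the 11 starts, those of Alas2, Cpox and the second listed start of Uros, against 26.5% of 32851 mouse promoters of the same length. CCACCC was found before 3 of 11 (Alas2, the first listed start of Alas1, and Tmem14c), against 28.1% of promoters. Only Alas2 held both, as did 5.80% of promoters. The shares among these starts are therefore close to those of all promoters. The 3 promoters with GATA letters and that of Alad, which has no match of either kind, are printed 5′ to 3′ on the strand of the gene, with GATA and CCACCC matches on either strand in capitals. Those of Alas2 lie at chrX:150547167-150547416 (forward strand), Cpox at chr16:58669958-58670207 (forward), Uros at chr7:133702501-133702750 (reverse) and Alad at chr4:62520064-62520313 (reverse).
Alas2: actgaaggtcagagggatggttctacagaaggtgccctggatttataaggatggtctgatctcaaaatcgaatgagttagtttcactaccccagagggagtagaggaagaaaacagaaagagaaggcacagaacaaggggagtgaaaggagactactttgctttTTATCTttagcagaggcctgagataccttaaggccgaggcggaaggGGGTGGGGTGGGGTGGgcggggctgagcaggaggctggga
Cpox: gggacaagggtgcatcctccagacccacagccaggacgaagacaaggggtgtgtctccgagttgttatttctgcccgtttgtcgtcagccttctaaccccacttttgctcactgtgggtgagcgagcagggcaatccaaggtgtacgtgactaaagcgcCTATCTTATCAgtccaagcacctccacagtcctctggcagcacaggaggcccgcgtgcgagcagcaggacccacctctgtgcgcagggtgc
Uros, second start: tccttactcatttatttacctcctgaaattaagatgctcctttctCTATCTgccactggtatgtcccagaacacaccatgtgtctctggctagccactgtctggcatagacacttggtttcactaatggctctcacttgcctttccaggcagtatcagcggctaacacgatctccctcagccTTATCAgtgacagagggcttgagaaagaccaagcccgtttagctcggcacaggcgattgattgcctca
Alad, first start: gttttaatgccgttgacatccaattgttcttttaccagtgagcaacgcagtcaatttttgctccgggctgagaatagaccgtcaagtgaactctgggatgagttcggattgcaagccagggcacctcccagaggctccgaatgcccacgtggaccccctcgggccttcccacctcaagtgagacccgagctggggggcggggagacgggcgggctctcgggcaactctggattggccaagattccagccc
In Alas2 the GATA letters begin 86 bases before the start and 3 CCACCC matches, each read as GGGTGG, begin 40, 35 and 30 bases before it and share their end letters. In Cpox the matches begin 91 and 86 bases before the start and overlap by 1 base. In Uros they lie 205 and 68 bases before the second start. A match describes letters only, and binding was not measured.

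Of the isozymes of the first step, Alas1 overlapped between the sorts and Alas2 did not. Alas1 stood at 33.4, 66.2 and 90.6 CPM in CD44+ libraries, and at 10.3, 69.1 and 31.5 CPM in CD44- libraries. The sorts overlapped, and the log2 difference was 0.74 (SE 0.58, edgeR adjusted p = 0.510). Alas2 stood at 40.1, 80.8 and 69.8 CPM in CD44+ libraries and at 599, 128 and 94.5 CPM in CD44- libraries. Every CD44- library was above every CD44+ library, as held for 9.22% of the 2463 genes tested, and replicate 1 of the CD44- sort was far above the rest. The log2 difference was -2.28 (SE 0.76) and did not pass the test (edgeR adjusted p = 0.172). The log2 ratios of CD44+ to CD44- within pairs 1, 2 and 3, after adding 10 CPM to each value, were -3.60, -0.61 and -0.39, and on the plates with both sorts alone the fitted difference was -0.46 (edgeR adjusted p = 0.680). In that CD44- library 94.8% of its 58 Alas2 transcripts lay in 6 wells. In it, 5 of the 44 wells had at least 10% globin transcripts, and its globins summed to 33726 CPM against 1198 to 4102 CPM in the other 5 libraries. Alas1 lies on chromosome 9 (106233455 to 106248654, reverse strand) and Alas2 on X (150547375 to 150570638, forward). Exons on the opposite strand overlap each: 4930500F10Rik at Alas1, Apex2 and Mir3620 at Alas2. Whether strand was used in counting is not given, so reads of these partners cannot be told apart.

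The 3 cytosolic enzymes were all higher in CD44+ libraries with no overlap between the sorts. Alad, 5-aminolevulinate dehydratase (chromosome 4, 62509169 to 62519918, reverse strand), joins aminolevulinate molecules into porphobilinogen. It stood at 181, 171 and 343 CPM in CD44+ libraries and 10.3, 49.3 and 37.8 CPM in CD44- libraries. Its log2 difference of 2.72 (SE 0.49, a fold of 6.58) was the only one of the 9 to pass the test (edgeR adjusted p = 0.0487). Over all genes, 0.0406% (1 of 2463, Alad itself) were called higher in CD44+ cells, and 1.02% in either direction. The CD44- side of the Alad value rests on 12 transcripts in all. Uros, uroporphyrinogen III synthase (chromosome 7, 133686243 to 133710072, reverse strand), stood at 221, 80.6 and 164 CPM against 61.8, 19.7 and 63.0 CPM. Urod, uroporphyrinogen decarboxylase (chromosome 4, 116989965 to 116994413, reverse strand), stood at 73.5, 92.3 and 174 CPM against 30.9, 29.6 and 44.1 CPM. Their log2 differences were 1.56 (SE 0.63) and 1.57 (SE 0.44), with edgeR adjusted p of 0.234 and 0.124.

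The late mitochondrial enzymes did not move together: Cpox was higher in every CD44+ library, whereas Ppox and Fech were not. Cpox, coproporphyrinogen oxidase (chromosome 16, 58670292 to 58717636, forward strand), stood at 368, 306 and 869 CPM against 113, 59.2 and 214 CPM, with no overlap. Ppox, protoporphyrinogen oxidase (chromosome 1, 171275990 to 171281186, reverse strand), stood at 20.0, 76.0 and 115 CPM against 41.2, 9.87 and 81.9 CPM. Fech, ferrochelatase, which inserts the iron, stood at 180.4, 144 and 271 CPM against 371, 128 and 208 CPM. For both genes the ranges of the sorts overlapped. Log2 differences were 1.85 for Cpox (SE 0.54, edgeR adjusted p = 0.132), 0.53 for Ppox (SE 0.67, adjusted p = 0.699) and -0.40 for Fech (SE 0.49, adjusted p = 0.689). The sign of Fech changed to 0.36 without replicate 1 of the CD44- sort, the library with the globin-rich wells. Gpr15 overlaps Cpox exons and B4galt3 those of Ppox on the opposite strand, so reads of each pair cannot be told apart. SORT-seq counts a transcript once by its UMI, so CPM is not divided by length, and levels of different genes are not ranked here.

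Tmem14c, the inner mitochondrial membrane protein that brings protoporphyrinogen to the last steps (chromosome 13, 41016292 to 41022586, forward strand), stood at 301, 338 and 618 CPM in CD44+ libraries and 82.4, 158 and 151 CPM in CD44- libraries. All CD44+ libraries were above all CD44- libraries, and the log2 difference was 1.57 (SE 0.36, edgeR adjusted p = 0.0853).

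**Figure D1:**
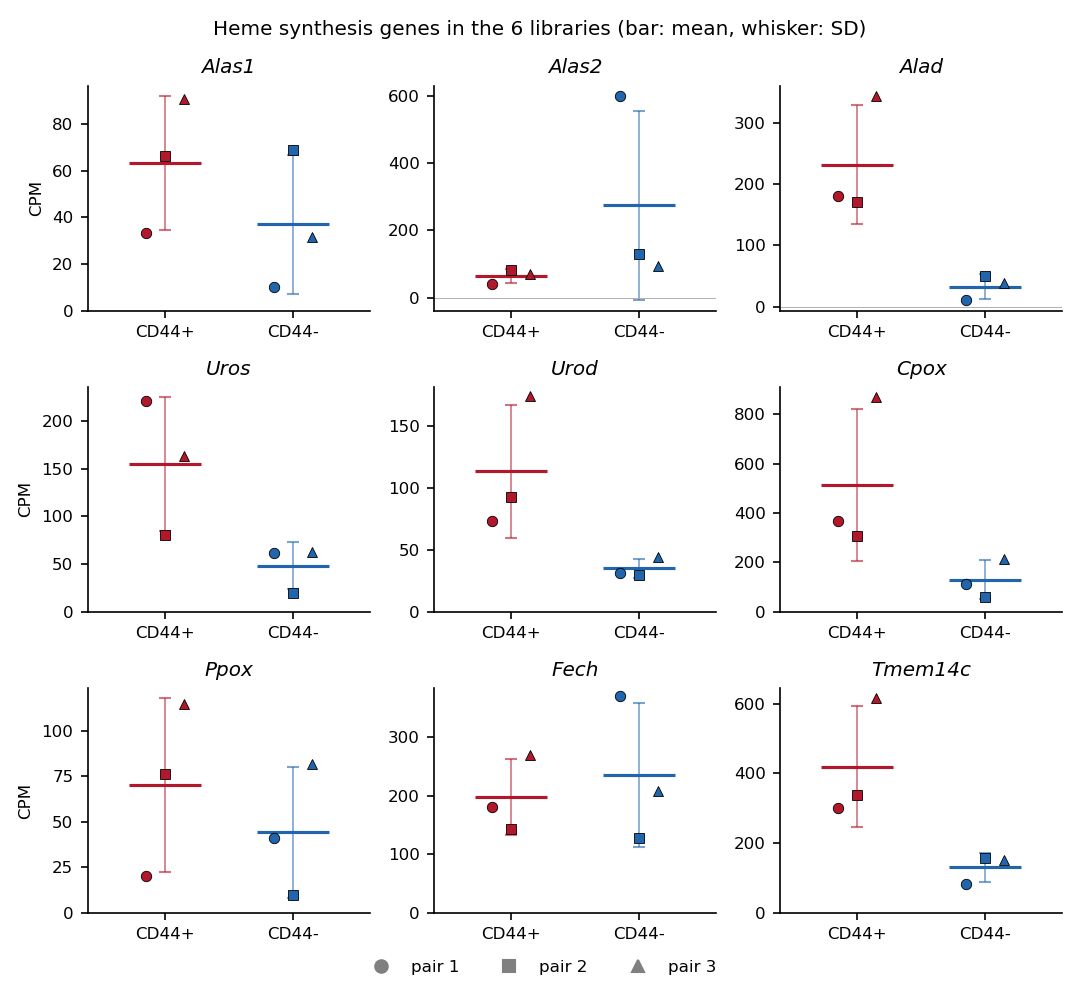
Level of each of the 9 genes (CPM, 1 panel per gene) in the 6 libraries, coloured by sort and marked by replicate, with bars for the mean and whiskers for the SD of 3 libraries. Alad, Uros, Urod, Cpox and Tmem14c are higher in all 3 CD44+ libraries, Alas2 is lower in all 3, and Alas1, Ppox and Fech overlap.

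Over the 9 genes, 7 had a log2 difference above 0, with a median of 1.56 against -0.04 for all 2463 genes tested, and 1 passed the test. Complete separation with CD44+ above was seen for 5 of the 9 genes, against 16.8% of all genes tested, and separation the other way for Alas2. With the plate pair as a block, Alad (log2 difference 2.72, edgeR adjusted p = 0.0129), Cpox (1.92, SE 0.33, adjusted p = 0.00861) and Tmem14c (1.56, SE 0.35, adjusted p = 0.0280) passed the test, where 1.75% of all genes were called higher in CD44+ cells. In pair 1 the sorts were on separate plates that the labels tie by number alone. The Alad call without the block was lost when any of 5 of the 6 libraries was left out (adjusted p 0.0639 to 0.200), the exception being replicate 1 of the CD44- sort. It was also lost without the wells that held at least 1% stromal transcripts (adjusted p = 0.304). Without those wells and with the block, none of the 6 members tested was called (edgeR adjusted p 0.109 for Alad, 0.105 for Cpox and 0.113 for Tmem14c), although 5 had an unadjusted p under 0.05. With the block, Tmem14c was lost on the shared plates only (edgeR adjusted p = 0.0766) and without Alas2 wells (0.0727), where Alad (0.0203 and 0.0354) and Cpox (0.0175 and 0.0171) passed.

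Other markers moved with the sorts. The 10 erythroid progenitor markers (Car1, Gata1, Klf1, Epor, Rhd, Add2, Ermap, Ces2g, Tfrc and Blvrb) were all detected in each library, except that Gata1 was at 0 in replicate 1 of the CD44- sort. They summed to 2537 to 5612 CPM in CD44+ libraries and 825 to 1626 CPM in CD44- libraries. The 12 stromal markers summed to 167 to 1373 CPM in CD44+ and 5823 to 29640 CPM in CD44- libraries; Col1a1, Col3a1, Runx2 and Islr were at 0 in replicate 1 of the CD44+ sort, and all 12 were detected in every other library. The 10 neutrophil lineage markers were all detected everywhere and summed to 4841 to 12622 CPM in CD44+ and 1285 to 36781 CPM in CD44- libraries. The share of wells with Car1 (defined below) was 28.6%, 11.6% and 52.9% in CD44+ and 2.27%, 8.33% and 27.0% in CD44- libraries. With those wells left out, 3 of the 9 genes remained above the filter, at log2 differences of 0.81 for Cpox (edgeR adjusted p = 0.844), 0.59 for Tmem14c (adjusted p = 0.783) and -1.89 for Fech (adjusted p = 0.388). Of 1503 genes tested in that fit 0 (0.0%) were called by edgeR, with 112 at an unadjusted p under 0.05. With the plate pair as a block 32 (2.13%) were called, 1 higher and 31 lower in CD44+ cells, and none of the 3 members was among them (edgeR adjusted p 0.610 for Cpox, 0.643 for Tmem14c and 0.114 for Fech). In the CD44+ libraries 92.6%, 83.3% and 95.9% of Alad transcripts lay in Car1 wells. Of the transcripts of all genes, these wells held 61063 of 149707, 400159 of 1118722 and 1291757 of 1707318 in the same libraries.

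**Figure D2:**
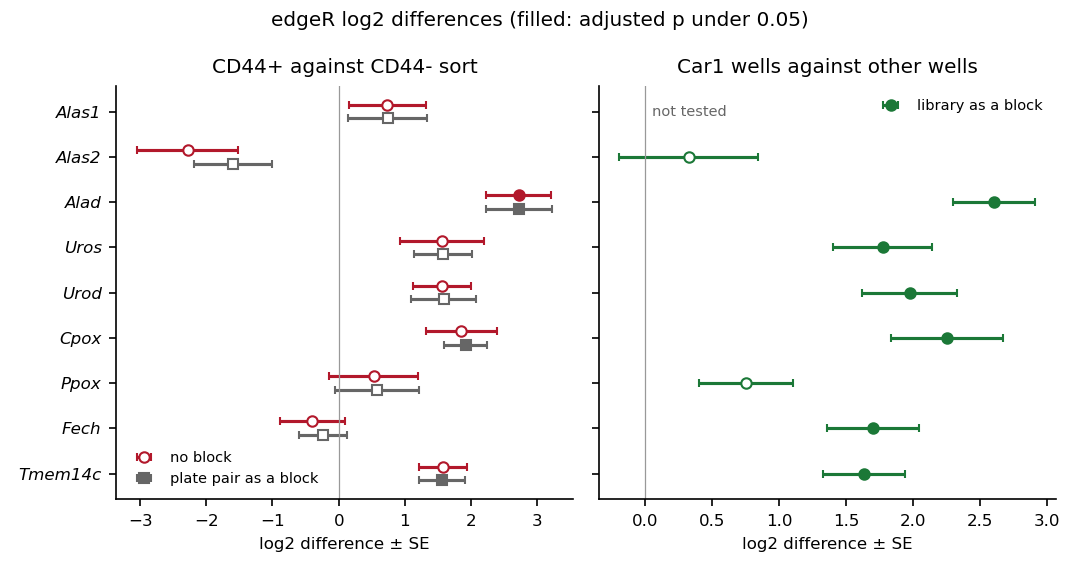
Log2 differences with SE for the 9 genes, on the left between the sorts and on the right between Car1 wells and other wells of the same library. On the left Alad has the highest value and Alas2 the lowest; on the right Alad, Cpox, Urod, Uros, Fech and Tmem14c lie between 1.63 and 2.60, while Alas2 and Ppox lie nearer 0 and Alas1 was below the filter.

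Because CD44+ wells of replicates 2 and 3 were deeper, the share of wells with a transcript of each gene was also compared after thinning every well to 1000 transcripts. An Alas2 transcript was then expected in 5.20% ± 2.94 of CD44+ wells and 12.7% ± 3.71 of CD44- wells (SD, n = 3 libraries each), the only gene of the 9 whose exact two-sided permutation p of 0.1 was the smallest that 3 against 3 can give. Alad was expected in 12.6% ± 8.20 against 4.93% ± 2.78 (exact permutation p = 0.3), and Tmem14c in 21.6% ± 12.01 against 11.3% ± 5.75 (exact permutation p = 0.2). Fech was expected in 12.9% ± 6.72 against 19.1% ± 7.09 (exact permutation p = 0.4). Unthinned means for these genes were 15.01% and 19.6% (Alas2), 35.4% and 13.1% (Alad), 45.8% and 28.5% (Tmem14c) and 36.6% and 34.5% (Fech). For comparison with wells of other lineages, stromal wells gave thinned shares of 2.16% for Alas2, 0.0% for Alad, 7.88% for Tmem14c and 4.62% for Fech, at a median depth of 6150 transcripts per well. Of these 21 wells 16 were CD44-. Neutrophil lineage wells, chosen in the same way, gave 3.90%, 1.84%, 14.6% and 9.45% in the same order. B lineage wells gave 0.0%, 2.62%, 7.50% and 1.58%. The 148 other wells that were not rich in Car1 or Alas2 gave 4.34%, 5.52%, 9.25% and 9.93%. These shares thus differed between kinds of wells. Whether they come from free RNA or from the cells themselves was not tested. In this design no share of the 9 genes can pass the threshold of 0.05.

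Wells were next ordered by Car1 and Alas2. Car1 encodes carbonic anhydrase 1, which is rich in early red cell precursors, and a Car1 well was defined by at least 2 Car1 transcripts and at least 500 CPM of Car1; Alas2 wells were defined in the same way. This gave 81 wells with Car1 alone, 5 with both, 12 with Alas2 alone and 245 with neither. The lowest Car1 level inside the limit was 530 CPM and the highest outside it 451 CPM; for Alas2 these were 506 and 459 CPM. Car1 chose the first set of wells and Alas2 the second, so their own levels in them are no findings.

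Within libraries, 6 of the 8 genes tested were higher in Car1 wells than in all other wells of the same library. The comparison used the 4 libraries with at least 3 wells of each kind, all CD44+ libraries and replicate 3 of the CD44- sort, with the library as a block. Alad stood at 410, 399, 435 and 103 CPM in the Car1 wells of these libraries and at 22.6, 44.5, 57.8 and 23.1 CPM in their other wells. Every Car1 sum was above every other sum, though replicate 3 of the CD44- sort held only 3 Alad transcripts on each side. Its log2 difference was 2.60 (SE 0.30, edgeR adjusted p = 0.000145), where 5.77% of 3868 genes were called higher in Car1 wells and 17.5% in either direction. Cpox stood at 607, 757, 1105 and 619 CPM against 203, 54.3, 135 and 123 CPM, a log2 difference of 2.25 (SE 0.42, adjusted p = 0.00266). The sums again did not overlap.

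Urod (log2 difference 1.97, SE 0.35, edgeR adjusted p = 0.00218), Uros (1.77, SE 0.37, adjusted p = 0.00569) and Tmem14c (1.63, SE 0.30, adjusted p = 0.00271) were also higher in Car1 wells. Tmem14c stood at 557, 716, 768 and 275 CPM against 124, 127, 149 and 123 CPM. Fech stood at 377, 309, 337 and 275 CPM in Car1 wells against 45.1, 51.5, 62.6 and 193 CPM in the others, a log2 difference of 1.70 (SE 0.34, adjusted p = 0.00438). Replicate 3 of the CD44- sort had the highest Fech level outside Car1 wells, so the gap there was the smallest of the 4. Ppox, at 32.8, 138, 129 and 103 CPM against 11.3, 41.8, 69.8 and 77.1 CPM, did not pass the test (0.75, SE 0.35, adjusted p = 0.170).

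The isozymes of the first step did not follow in the main fit. Alas2 stood at 0.0, 151, 73.6 and 138 CPM in Car1 wells and 67.7, 41.8, 57.8 and 84.8 CPM in the others, overlapping, with a log2 difference of 0.32 (SE 0.52, edgeR adjusted p = 0.721). The others include the Alas2-only wells, which were chosen for high Alas2. The Alas2 result depended on the setting. In wells of at least 3000 transcripts Alas2 was called higher in Car1 wells (2.17, edgeR adjusted p = 0.000749). With a limit of 1000 CPM it was at -2.15. Alas1 was below the filter on low counts. It stood at 32.8, 22.5, 20.1 and 68.8 CPM in Car1 wells and 33.8, 90.6, 309.7 and 23.1 CPM in the others. With no filter its log2 difference was -2.78 (SE 0.53, edgeR adjusted p = 7.03e-06). CD44+ replicate 1 held only 2 Alas1 transcripts in Car1 wells and 3 in the others. The same counts in CD44- replicate 3 gave a higher level in Car1 wells. In CD44+ replicate 3 a single well gave 68 of the 129 Alas1 transcripts outside Car1 wells.

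Leaving out replicate 2 or replicate 3 of the CD44+ sort left Alad as the only member called (edgeR adjusted p = 0.0267 and 0.0173), with 77 and 106 genes called in all in place of 676. In these fits 1571 and 1617 genes passed the filter in place of 3868. The 6 members tested were all above 0 with an unadjusted p under 0.05, at medians of 1.44 and 1.76. Without the library as a block, the call of Uros alone was lost (1.75, edgeR adjusted p = 0.0630). With a limit of 1000 CPM for Car1 wells, Alad and Cpox alone stayed called, and Uros (0.53), Urod (0.65), Fech (0.41) and Tmem14c (0.72) fell short. Scaling by library size alone in place of TMM moved the median of all genes from 0.04 to 0.46, a shift of 0.42, and the share of calls that were higher from 33.0% (223 of 676) to 62.2% (543 higher and 330 lower). The same 6 genes were called under that scaling, Alad at 3.04 and Tmem14c at 2.05, and the median over the 8 tested went from 1.74 to 2.17.

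Other genes of heme handling were less uniform. Of 24 such genes on a list of carriers, mitochondrial iron and cluster genes, heme breakdown enzymes and regulators, 17 were tested in the Car1 comparison and 5 were higher: Slc25a38, a mitochondrial glycine carrier (log2 difference 1.34, SE 0.41, edgeR adjusted p = 0.0397), Abcb10, a mitochondrial transporter (1.95, SE 0.35, adjusted p = 0.00231), Hebp1, a heme-binding protein (2.80, SE 0.37, adjusted p = 0.000342), Glrx5, of iron-sulfur cluster assembly (1.73, SE 0.31, adjusted p = 0.00197), and Blvrb, biliverdin reductase B (2.63, SE 0.45, adjusted p = 0.00168). The 5 of 17 stand against 5.77% of all genes called higher. None of the 17 was lower by that test, 7 (41.2%, against 30.5% of all genes tested) had an unadjusted p under 0.05, and their median was 0.64 against 0.04 for all genes. Between the sorts, 10 were tested and 0 called by edgeR (4 at an unadjusted p under 0.05, 1 called by DESeq2), with a median of 0.49. With the plate pair as a block Blvrb alone was called (2.09, SE 0.43, edgeR adjusted p = 0.0231).

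The genes were also summed over the 4 classes of wells. Alad stood at 43.0 CPM in wells with neither gene (95% Poisson interval 33.2 to 54.8), 413 CPM with Car1 alone (382 to 445), 480.1 CPM with both (377 to 598) and 34.4 CPM with Alas2 alone (0.871 to 191.7, 1 transcript). Tmem14c stood at 130.4, 724, 912 and 34.4 CPM in the same order, again 1 transcript in the Alas2-only wells. Both genes were thus high in Car1 wells, while their level where Alas2 stood alone rests on 1 transcript each. Intervals and limits cover counting error only.

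Fech was not low in the Alas2-only wells. It stood at 66.8 CPM (54.4 to 81.2), 300.1 CPM (274 to 328), 670.2 CPM (552 to 813) and 1170 CPM (810 to 1634). Of the 34 Fech transcripts in the Alas2-only wells 21 came from replicate 1 of the CD44- sort, and without that library the class stood at 703 CPM. Fech was lower with Alas2 alone than with both genes in CD44+ replicates 2 (467 against 552 CPM) and 3 (393 against 845 CPM), higher in CD44- replicates 1 (1985 against 1758 CPM) and 3 (3038 against 1906 CPM), and at 0 in the 1 Alas2-only well of CD44- replicate 2. Ppox stood at 41.0, 118, 233 and 378 CPM (189 to 677 in the last class, 11 transcripts). The Ppox interval in the last class overlapped that of the class with both genes, its level there was 233 CPM without CD44+ replicate 3, and it was at 0 in the Alas2-only wells of 3 of the 6 libraries. The summed wells thus do not order the classes with Alas2 for either gene. Cpox, at 90.0, 981, 1179 and 206 CPM (75.7 to 449), was lower in the Alas2-only wells than in Car1-only wells; with both genes it was 772 CPM without CD44+ replicate 3. Uros stood at 32.4, 194, 284 and 344 CPM (165 to 633, 10 transcripts), and Urod at 29.1, 191.95, 398 and 138 CPM (37.5 to 352, 4 transcripts). In the Alas2-only wells Uros ranged from 187 to 541 CPM and Urod from 37.1 to 216 CPM when 1 library was left out, the lowest values being those without CD44+ replicate 3 and replicate 2 and the highest those without CD44- replicate 1. Urod in Car1-only wells was 128 CPM without CD44+ replicate 3.

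**Figure D3:**
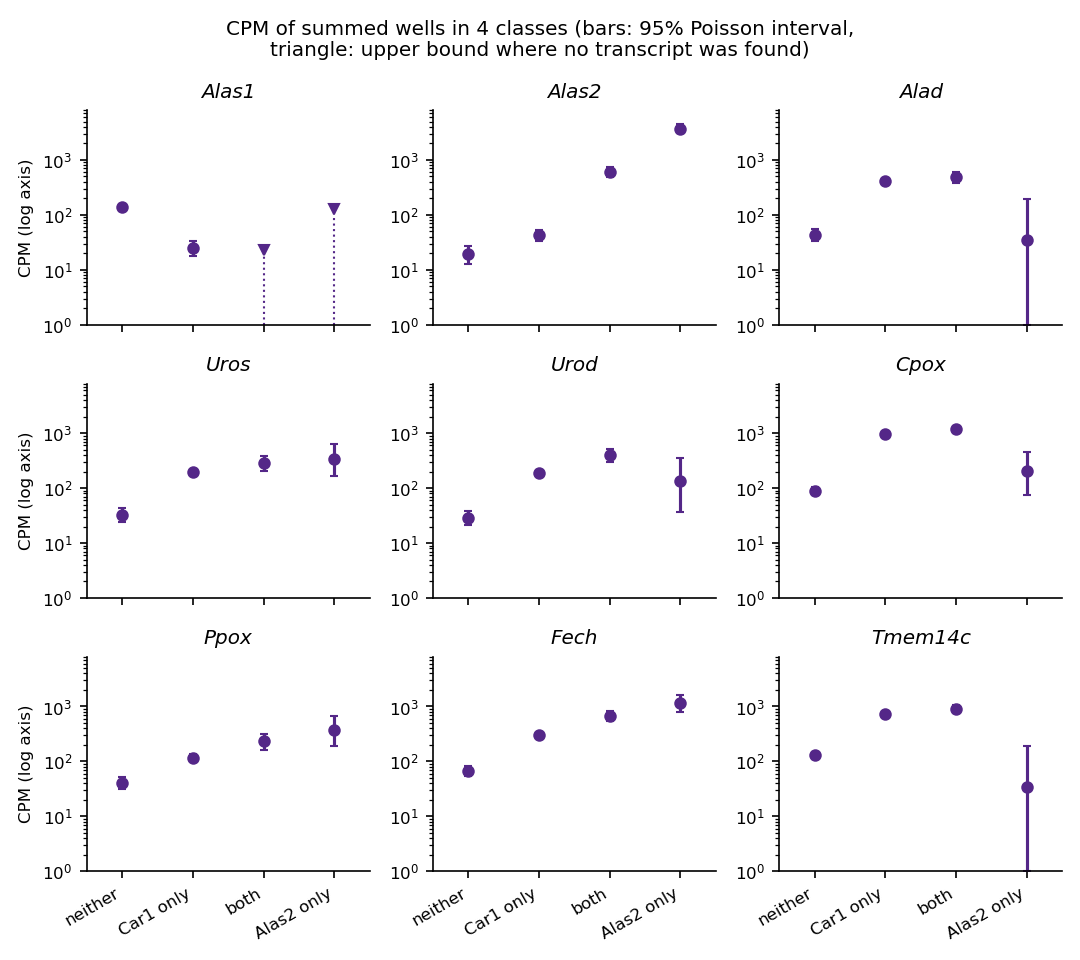
Level of each gene (CPM, log axis from 1, with 95% Poisson intervals) in wells with neither gene, Car1 alone, both and Alas2 alone. Alad and Tmem14c drop to 34.4 CPM in the 12 Alas2-only wells, where Fech stands at 1170 CPM (703 CPM without replicate 1 of the CD44- sort).

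The 12 Alas2-only wells were 4 CD44+ and 8 CD44- wells from all 6 libraries, 5 of them from replicate 1 of the CD44- sort, with a median of 2143 transcripts per well and a median globin share of 4.77%. Together they held 29071 transcripts, so a gene at 34.4 CPM is 1 transcript. Thinned to 1000 transcripts, Fech was expected in 61.4% of these wells, Alad in 2.36% and Tmem14c in 1.39%. In the 81 Car1-only wells these shares were 24.05% for Fech, 28.4% for Alad and 41.4% for Tmem14c. The top well by Alas2 level, from replicate 1 of the CD44- sort, held 18 Alas2 and 4 Fech transcripts among 1192, with 44.6% globin and no Alad, Uros, Urod or Tmem14c. The next, from the same library, held 16 Alas2 and 9 Fech transcripts among 1369, with 66.5% globin and none of the other 7 genes. A CD44+ well of replicate 2 held 23 Alas2, 2 Uros, 3 Urod, 3 Ppox and 1 Fech transcript among 2139, with 4.88% globin.

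Of the 5 wells with both genes, the deepest held 111333 transcripts and made up most of the class. In it all members but Alas1 were found, among them 56 Alas2, 47 Alad, 79 Cpox, 61 Fech and 68 Tmem14c transcripts. Without it the class stood at 820 CPM of Alas2, 610.0 CPM of Alad, 2281 CPM of Cpox, 947 CPM of Fech and 1624 CPM of Tmem14c. No test was run between Alas2 wells and Car1-only wells, since only replicates 3 of each sort had at least 3 wells of both kinds. In the CD44+ library of that pair, Fech stood at 777 CPM in 4 Alas2 wells and 320.1 CPM in 44 Car1-only wells, and Alad at 577 against 426 CPM. In the CD44- library Fech stood at 2536 CPM in 3 Alas2 wells and 148 CPM in 9 Car1-only wells, and Alad at 0.0 against 111 CPM, from 12 and 4 Fech and 0 and 3 Alad transcripts. Fech was higher in the Alas2 wells of both libraries, and Alad in those of the CD44+ library only. Of the 4 Alas2 wells of the CD44+ library, 2 also held Car1, and these gave all 29 Alad transcripts (681 CPM). The 2 wells with Alas2 alone held 0 Alad transcripts and stood at 393 CPM of Fech, from 3 transcripts. The higher Alad level there thus came from wells with both genes.

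**Figure D4:**
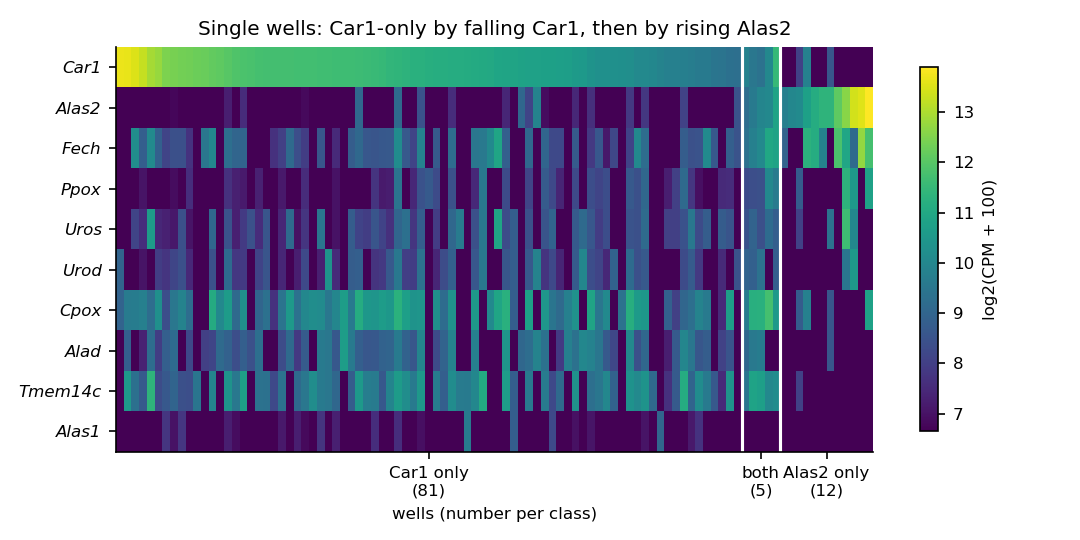
Level of each gene in single wells, grouped into the Car1-only, both and Alas2-only classes. Of the 12 wells with Alas2 alone, 9 hold a Fech transcript and 1 holds an Alad transcript.

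Summed over steps and pooled over libraries, the balance of late to early enzymes hardly moved with Car1. Late transcripts (Cpox, Ppox and Fech) made up 65.4% of early plus late ones (Alad, Uros and Urod being early) in wells with neither gene (95% Clopper-Pearson interval 60.9 to 69.8), 63.7% with Car1 alone (62.1 to 65.2) and 64.2% with both (59.8 to 68.3). Of the 3588 early plus late transcripts with Car1 alone, 2926 came from CD44+ replicate 3. In CD44+ replicates 1, 2 and 3 the share was 59.5%, 60.7% and 64.9% with neither gene. With Car1 alone it was 52.5%, 62.1% and 64.5% there. In CD44- replicates 2 and 3 it was 81.8% and 79.2% with neither gene. With Car1 alone these stood at 25.0% and 59.3%, from 4 and 27 transcripts. In Alas2-only wells the share was 77.3% (65.3 to 86.7), from 51 of 66 transcripts. It was 63.4% without replicate 1 of the CD44- sort, whose 5 wells held 25 late and 0 early transcripts. With wells ordered by Car1 and split into those without Car1 and terciles of the rest, the shares were 67.9%, 67.6%, 61.3% and 65.6%, from none to the high tercile. Ordered by Alas2 they were 65.7%, 61.1%, 62.1% and 66.1%. Neither order showed a steady trend, and the late enzymes within the share differed, as Fech made up 22.1% of the 6 enzymes in wells with neither gene and 13.7% in Car1-only wells.

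Per library, the late share was 54.5%, 60.4% and 64.8% in CD44+ cells and 83.6%, 66.7% and 77.7% in CD44- cells, so that all CD44- values were above all CD44+ values. The CD44- values came from 61, 30 and 103 transcripts, and their intervals were 71.9 to 91.8, 47.2 to 82.7 and 68.4 to 85.3. In wells of at least 3000 transcripts the shares were 56.0%, 60.3% and 64.9% against 66.7%, 62.5% and 74.4%, where the sorts overlap. The share is a score over these genes and carries no test.

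Levels of several members along the Car1 order were highest in its middle. Alad stood at 25.0 CPM in the 194 wells without Car1 and at 136, 515 and 328 CPM in the low, middle and high tercile of wells with it, Cpox at 54.6, 391, 1069 and 858 CPM, and Tmem14c at 105, 312, 839 and 615 CPM. Alas2, at 93.6, 113, 85.1 and 80.9 CPM, showed no such peak. For Alad, Cpox and Tmem14c the 95% Poisson interval of the middle tercile lay above those of the low and the high tercile (for Alad 464 to 568 CPM against 105 to 174 and 294 to 365 CPM). For Fech (291 to 375 against 281 to 350 CPM) and Urod (199 to 270 against 156 to 209 CPM) the middle and high intervals overlapped. These intervals cover counting error only and not the spread between wells or libraries. Terciles were cut within libraries and then pooled, and no values per library were computed. Median depths were 2548, 6980, 3165 and 6575 transcripts per well in this order, and the part of depth in these levels was not tested.

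Alas1 and Alas2 were found together in 4 wells below both class limits, in 8 Car1-only wells and in no Alas2 well. Alas2 made up 12.3% of Alas1 plus Alas2 transcripts in wells with neither gene, 63.3% with Car1 alone (95% Clopper-Pearson interval 53.5 to 72.3), and all of them with both and with Alas2 alone (96.2% and 96.6% as lower limits). The limit on Alas2 bears on the share in all 4 classes, and with limits of 1000 CPM the share in wells with neither gene was 39.2% (138 of 353 transcripts). In Car1-only wells 63 of the 69 Alas2 transcripts came from CD44+ replicate 3, without which Alas2 gave 6 of 20 isozyme transcripts there. Without the same library the share was 21.2% in wells with neither gene. The 17 Alas2 wells held 0 Alas1 transcripts among 188042, with an upper 95% Poisson limit of 19.6 CPM. For the 12 Alas2-only wells that limit was 127 CPM. Car1-only wells stood at 24.5 CPM of Alas1 (17.5 to 33.4), so the intervals overlap. Over libraries the Alas2 share was 54.5%, 55.0% and 43.5% in CD44+ cells and 98.3%, 65.0% and 75.0% in CD44- cells.

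**Figure D5:**
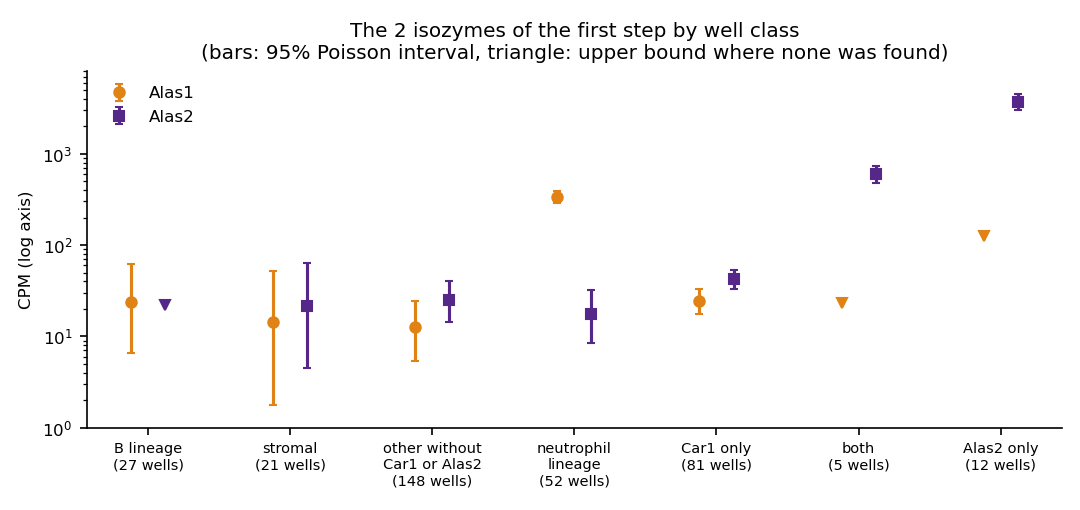
Level of Alas1 and Alas2 (CPM, log axis, with 95% Poisson intervals) in 7 classes of wells. Alas1 is highest in neutrophil lineage wells, at 336 CPM. Alas2 chose the wells with Alas2 alone, so its level of 3721 CPM there is no finding.

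Alas1 transcripts lay mainly in wells with neutrophil lineage genes. Wells in which Elane, Mpo, Prtn3, Ctsg and 6 other neutrophil lineage genes took at least 1% of transcripts numbered 52 and held 193 Alas1 transcripts, 78.1% of all, at 336 CPM. B lineage wells (27) stood at 24.1 CPM, stromal wells (21) at 14.4 CPM, the 148 other wells with neither gene at 12.5 CPM and Car1-only wells at 24.5 CPM. A single well gave 68 of the 193, and the top 3 wells 123. Within libraries, neutrophil lineage wells stood at 264, 219 and 604 CPM in the CD44+ sort against 14.5, 16.6 and 20.6 CPM in all other wells. In the CD44- sort they stood at 0.0 CPM against 11.6 CPM in replicate 1 and at 83.2 CPM against 34.2 CPM in replicate 2, and replicate 3 had no such well. Alas1 was thus higher in the neutrophil lineage wells of 4 of the 5 libraries that had them. In CD44+ replicate 1 this rests on 3 transcripts against 2, and in CD44- replicate 2 on 6 against 1. CD44+ replicates 2 and 3 held 60 against 14 and 124 against 31. The 5 wells with the most Alas1 held 60 to 287 Elane and 188 to 635 Mpo transcripts, which encode proteins of primary granules, at most 3 of S100a8 and of Ngp, and 0 of Alas2. Without neutrophil lineage wells the Alas2 share of the CD44+ sort was 82.0% in place of 48.0%.

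More of the 9 genes were found per well where Car1 or Alas2 was present. The median number of the 9 genes with a transcript in a well was 1 in wells with neither gene (102 of the 245 had none), 6 with Car1 alone, 8 with both and 2.5 with Alas2 alone. Median depths were 2795, 11937, 12480 and 2143 transcripts per well, and more genes are found in deeper wells. After thinning to 1000 transcripts the mean number was 0.476, 1.95, 4.11 and 2.33 genes per well. Leaving out Alas2, which chose the last 2 classes, it was 0.440, 1.91, 3.49 and 1.43.

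Genes with the most similar pattern over wells differed between the cytosolic to late steps and Alas2. Over the 179 wells with at least 3000 transcripts and 3206 genes, the summed level of Alad, Uros, Urod, Cpox, Ppox, Fech and Tmem14c (log2 of CPM plus 100) had among the genes most like it Car2 (Pearson r 0.84), Aqp1 (0.80), Blvrb (0.80) and Ctse (0.79), with Car1 at 0.73. Among those most like Alas2 were Beta-s, a beta globin name (0.65), Slc4a1, the red cell anion exchanger (0.63), Bpgm, bisphosphoglycerate mutase (0.56), and Slc25a37, the mitochondrial iron carrier mitoferrin 1 (0.55). Car1 stood at 0.13 with Alas2. These correlations are across wells, which share libraries and differ in depth, and they describe the wells only. The log2 depth of a well had an r of 0.51 with the summed level and 0.06 with Alas2.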

How the data were processed

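The authors deposited expected counts: UMI-based estimates of the transcripts of each gene in each well, not scaled from well to well. Aligner BWA 0.7.15 and build mm10 are named in the submitters' processing notes. For the counting tool, gene models and strand handling, the answer is not given in the sources used here. Values returned to whole numbers within 0.011 (100.0% of values above 0) when a correction for UMI saturation with 4096 UMIs was undone, a step that no label records and that is inferred from the values; it added 2.32%. Plain counts had been assumed for the tests, and sums were rounded to whole numbers.

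Wells 1 to 192 of a shared plate were taken as rows A to H, an order the labels do not state. Wells with at least 1000 transcripts outside spike-ins were kept, and doublets were not called, as single cells had been sorted per the labels. Wells carry plate positions in place of cell barcodes, so libraries share none. Sums per plate and sort, or per library and class of wells, were tested in edgeR 4.0.16 (R 4.3.3; quasi-likelihood F test, TMM, filterByExpr, two-sided, Benjamini-Hochberg over all genes tested, threshold 0.05), in place of counting cells as replicates. The SE is the log2 difference divided by the square root of the F statistic. In data simulated with 100 genes changed by each fold, the sort comparison (2632 genes) recovered 66 of 100 at a fold of 8 and 7 of 100 at a fold of 2, and the Car1 comparison (4105 genes) 100 and 15. DESeq2 1.42.0 was an alternative. CPM uses the library total without the TMM factor. Thinned shares are hypergeometric expectations; intervals are exact at 95%. Same-numbered libraries were correlated in their deviations from the sort means (0.46, 0.31 and 0.32, others -0.36 to 0.08), and the numbers were taken to pair the libraries. In the labels the sorts share a plate in replicate 2 and in replicate 3. In replicate 1 they are on separate plates, which the labels tie by number alone. Pair 1 thus rests on that number and on a correlation from these same data. Genes named beside the 9 are those of the heme pathway list past the threshold and the 5 most correlated genes with a mean of at least 50 CPM; some of these genes are not reported here. The 9 genes and all lists were chosen with earlier results of these data known. Promoters are from RefSeq and gene positions from GENCODE on GRCm38.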

Additional observations from a re-analysis of the deposited data

Results flagged for a closer look

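Wells under 1000 transcripts were left out of every comparison, and they too held transcripts of the 9 genes above the limit that a count of 0 allows (27.4 and 21.5 CPM for 3 transcripts in each sort). The 530 CD44+ wells left out held 100 such transcripts, or 912 CPM for the 9 genes together, against 2137 CPM in kept CD44+ wells. The 663 CD44- wells left out held 174, or 1245 CPM, against 955 CPM in kept CD44- wells. In the latter, 53 of the 174 were Alas2 and 41 were Fech; in the CD44+ wells left out Alas2 gave 13 and Fech 17. Tmem14c gave 19 in the CD44- and 24 in the CD44+ wells left out. What these wells held, cells of little RNA or free RNA, was not tested.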

How the results depend on the processing

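The number of genes called between the sorts depended on nearly every choice. Against 25 genes (1 higher and 24 lower in CD44+ cells) it was 270 with DESeq2, 156 with the replicate block (plate pair), 476 with no filter on low counts, 41 with wells of at least 500 transcripts, 46 without globin-rich wells, 52 without wells of low quality, 5 without the deepest 1% of wells, 161 on the shared plates only and 229 there with the block, 34 without Alas2 wells (62 with the block), 0 without Car1 wells (32 with the block), 0 without stromal wells (0 with the block) and 0 thinned to 1000 transcripts. Leaving out 1 library at a time gave 0 to 115. Over all libraries and wells the block changed the calls of Cpox and Tmem14c among the 9 genes and of no other; on the shared plates it changed those of Alad (adjusted p from 0.0553 to 0.0203) and Cpox (0.187 to 0.0175). Genes called by Car1 went from 676 to 348 with a limit of 1000 CPM and to 1867 with no filter, and ranged from 77 to 1080 when 1 library was left out. The cause was not tested.

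Among the 9 genes, Alad kept its sign between the sorts in all 20 alternatives (2.22 to 3.19) and passed the test in 10. Against Car1 it passed in all 14 (1.35 to 3.04). Fech turned from -0.40 to 0.34 without Alas2 wells (0.27 with the block), 0.19 without globin-rich wells, 0.16 with no filter, 0.38 on the shared plates only (0.38 with the block) and 0.36 without replicate 1 of the CD44- sort. In the Car1 comparison Alas2 turned from 0.32 to -0.15 with DESeq2 and -2.15 with a limit of 1000 CPM, and passed the test at 2.17 in wells of at least 3000 transcripts. Ppox turned to -0.20 with that limit.

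The late share of Car1-only wells, 63.7%, was 65.6% in the high tercile by Car1 and 60.05% to 64.05% without 1 library. With both genes it was 64.2%, 84.6% with class limits of 1000 CPM, 72.0% without the deepest well and 60.4% to 72.0% without 1 library. In Alas2-only wells it ranged from 63.4% to 83.3% without 1 library. The Alas2 share of the CD44+ sort, 48.0%, was 43.0% in wells of at least 3000 transcripts, 82.0% without neutrophil lineage wells and 43.9% to 54.9% without 1 library; that of the CD44- sort, 86.9%, was 71.9% in wells of at least 3000 transcripts and 70.0% to 92.4% without 1 library. Unthinned, the CD44+ minus CD44- difference in the share of wells turned from -0.69 to 5.54 percentage points for Alas1 and from -6.11 to 2.11 for Fech.

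The fit of Alas2 wells against Car1-only wells was not run, as 2 libraries had enough wells of both kinds, nor was the comparison of the sorts within Car1 wells, as 1 CD44- library had enough. Depth limits the CD44- side most: its 3 libraries held 12 to 86 transcripts of each of the 9 genes.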
